A study of Mus musculus with 24 samples.

Results

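The urea cycle turns ammonia from amino acid breakdown into urea, and the genes described here encode its enzymes, its activator and carrier, and 3 enzymes that release ammonia from histidine, serine and glutamine. The 10 listed genes were chosen by name for these roles, and were Nags, Cps1, Otc, Slc25a15, Ass1, Asl, Arg1, Hal, Sds and Gls2. A gene was taken from the deposited array values at its probe set with 1 gene symbol, and 7 of the 10 listed genes, among 18820 genes in all, had 1 such probe set each. Ass1 was read only by 2 probe sets that the annotation shares with the predicted gene Gm5424, so their values cannot be assigned to Ass1 alone. Sds and Gls2 were not analysed here.

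Nags, Cps1 and Otc act in the mitochondrial matrix of hepatocytes, Slc25a15 carries ornithine and citrulline across the inner mitochondrial membrane, and Ass1, Asl and Arg1 act in the cytosol. Hepatocytes near the portal vein carry most of this activity, while those around the central vein take up the remaining ammonia as glutamine through glutamine synthetase, the product of Glul. The pathway is under the control of hormones and diet, and glucagon and glucocorticoids are known to raise its enzymes.

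RNA of 24 snap-frozen mouse livers was hybridised to 1 whole-transcript Affymetrix array each, in 8 groups of 3 mice, and all values are RMA levels on the log2 scale. The first experiment set untreated NEMO/JNKΔhepa triple knockout mice aged 52 weeks against untreated mice labelled control of the same age. JNKΔhepa double knockout mice were set against mice labelled control 40 days into treatment with diethylnitrosamine (DEN), which induces liver tumours, and at day 28 of bile duct ligation (BDL), which causes cholestasis. In the last experiment untreated NEMO/JNK1Δhepa double knockout mice aged 8 weeks were set against untreated NEMO single knockout mice of that age, so that no mouse of that experiment carried intact NEMO by label. NEMO, encoded by Ikbkg, holds the IkB kinases in their complex, and JNK1 and JNK2 are the stress kinases encoded by Mapk8 and Mapk9. Per the labels' protocols, Cre came from an albumin-driven transgene, Jnk1 was floxed, and the Jnk2 deficiency was that of the purchased Jnk2-/- line, which is not confined to hepatocytes. The protocols name NEMOΔhepa and NEMO f/f mice as controls of the triple knockout line, without saying which liver labelled control was which. Ages of the treated mice and the sex of all mice are not given. Bulk liver RNA cannot tell fewer cells of a type from less RNA per cell.

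Array medians over the genes lay between 5.03 and 5.44, and across genes the correlation of 2 arrays from 1 group was 0.963 to 0.994. Mapk8 was lower at 52 weeks in triple knockout livers (5.65 ± 0.11, against 6.52 ± 0.18 in livers labelled control; SD, n = 3 each), with a log2 difference of -0.87 (limma adjusted p = 0.00259), and in JNK knockout livers after BDL, with a log2 difference of -1.02 (limma adjusted p = 0.0299). The BDL call for Mapk8 did not hold without JNK knockout replicate 1 (0.107) or 3 (0.125), or without control replicate 1 (0.106) or 2 (0.055). Nor did it hold with the replicate number as a block (0.0516), all limma adjusted p-values. After BDL, control replicates 1 and 2 carried a mouse identifier prefix that control replicate 3 and the JNK knockout livers lacked. With that prefix as a block, the JNK knockout livers were set against control replicate 3 alone, and Mapk8 was not called. Mapk8 differed by -0.64 after DEN and by -0.61 at 8 weeks, neither past the threshold. Ikbkg fell by 0.85 on the log2 scale at 52 weeks (limma adjusted p = 0.0043), to a mean of 6.45 in triple knockout livers. At 8 weeks it stood at 6.92 ± 0.14 in the livers labelled NEMO/JNK1 knockout and 7.07 ± 0.24 in those labelled NEMO knockout. The group means without a NEMO knockout label spanned 6.98 to 7.39, so that NEMO/JNK1 lay just below that range and NEMO within it. Mapk9 lay between 2.82 and 3.51 in all 18 livers outside the 8-week experiment, including the 9 labelled control, and between 7.99 and 8.53 in the 6 livers of 8 weeks. Mapk9 did not separate the knockout livers from those labelled control, with differences of -0.28 at 52 weeks, -0.09 after DEN and 0.05 after BDL, none past the threshold. The group names below are those of the labels. Whether the mice labelled control carried an intact Jnk2 gene is not settled by the labels or by these levels, and a JNK difference below is one between livers so labelled, which may not include the loss of JNK2. JNK knockout replicate 3 after DEN stood apart by its sex-linked genes, with Xist at 10.38, while the other 23 livers had Xist between 2.16 and 3.87 and the Y-linked gene Eif2s3y between 6.61 and 7.96.

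At 52 weeks Otc and Slc25a15 were lower in NEMO/JNK knockout livers. Otc, the enzyme that makes citrulline from ornithine, fell to 0.54 of its level in livers labelled control, and Slc25a15, the carrier that brings its ornithine in, fell to 0.72 of it. They were the 2 of 7 measured genes called lower at an adjusted p under 0.05, and 0 of 7 were called higher, where 7.9% of all 18820 genes were called lower and 13.6% higher. Of 15 alternative fits, Otc was called in 15 and Slc25a15 in 10. With each array centred on its median, 4 of the 7 were called lower (Otc, Slc25a15, Asl and Hal), and the calls over all genes were 8942 lower and 1570 higher, against 1486 lower and 2562 higher without centring. None of the 7 was called in JNK knockout livers after DEN or after BDL, or in NEMO/JNK1 knockout livers at 8 weeks. Over all 18820 genes, 0.0% were called after DEN and 1.35% after BDL. All 7 values were below 0 at 8 weeks, with a median of -0.38 where the median over all genes was -0.003. None of the 7 passed the threshold there, and 0.0% of all genes did (limma, 0 of 18820).

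Promoter windows of 300 bases, 250 before the start site and 50 from it on, were available for 5 of the 10 listed genes (RefSeq, GRCm38.p6). Those of Otc and Slc25a15 are shown because these genes fell at 52 weeks, and that of Hal because its groups were separated in 3 of the comparisons below. The Otc window is chrX:10252055-10252354 on the plus strand, the Slc25a15 window is chr8:22398572-22398871 on the minus strand, and the Hal window is chr10:93488518-93488817 on the plus strand. Each is written 5′ to 3′ along its gene, with matches to the searched motifs in capitals.
Otc: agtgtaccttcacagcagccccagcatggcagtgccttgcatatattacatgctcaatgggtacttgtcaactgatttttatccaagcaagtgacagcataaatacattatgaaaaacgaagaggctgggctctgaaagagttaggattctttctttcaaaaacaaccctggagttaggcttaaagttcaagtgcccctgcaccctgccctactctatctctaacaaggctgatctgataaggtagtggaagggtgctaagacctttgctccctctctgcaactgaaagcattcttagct
Slc25a15: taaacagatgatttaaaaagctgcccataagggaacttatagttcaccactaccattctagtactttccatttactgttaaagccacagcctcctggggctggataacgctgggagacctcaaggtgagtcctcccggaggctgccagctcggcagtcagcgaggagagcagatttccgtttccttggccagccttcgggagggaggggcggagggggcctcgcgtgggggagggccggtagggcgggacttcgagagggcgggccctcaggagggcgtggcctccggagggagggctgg
Hal: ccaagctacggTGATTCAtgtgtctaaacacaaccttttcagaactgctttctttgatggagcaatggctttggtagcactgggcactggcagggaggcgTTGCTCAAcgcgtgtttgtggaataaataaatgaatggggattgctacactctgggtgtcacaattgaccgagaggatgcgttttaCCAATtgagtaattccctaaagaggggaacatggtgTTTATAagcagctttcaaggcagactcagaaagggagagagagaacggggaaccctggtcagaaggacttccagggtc
The 8 motifs were searched on both strands as fixed letters. The TATA box was searched as TATAAA and the box bound by the factor NF-Y as CCAAT. The half-site of the cAMP response element was searched as TGACG, the site of the AP-1 dimer as TGANTCA and the half-site of nuclear receptors as AGGTCA. For the liver factors, the letters were GTTAAT for an HNF1 half-site, TTGCNNAA for a C/EBP site and TGTTTNC for a FOXA site. The Hal window held the TATA box letters on the minus strand from position -28, the NF-Y letters from -64, the C/EBP letters from -150 and an AP-1 match, found on both strands, from -239, counted from the start site at 1. AP-1 is the dimer of Jun and Fos family proteins and Jun is the protein for which the JNK kinases are named, so the AP-1 match is given with its background. AP-1 letters were present in 7.81% of 32851 mouse promoter windows of this length, the C/EBP letters in 10.8%, the TATA box letters in 13.6% and the NF-Y letters in 37.4%. The Nags window, not shown, held the letters of the cAMP response element half-site from position 32. It also held those of the nuclear receptor half-site from -178, both on the minus strand. These letters were present in 20.8% and 16.3% of the mouse windows. None of the 8 motifs was found in the windows of Otc and Ass1 or in either Slc25a15 window. The matches describe letters in a window, and no binding was measured.

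**Figure D1:**
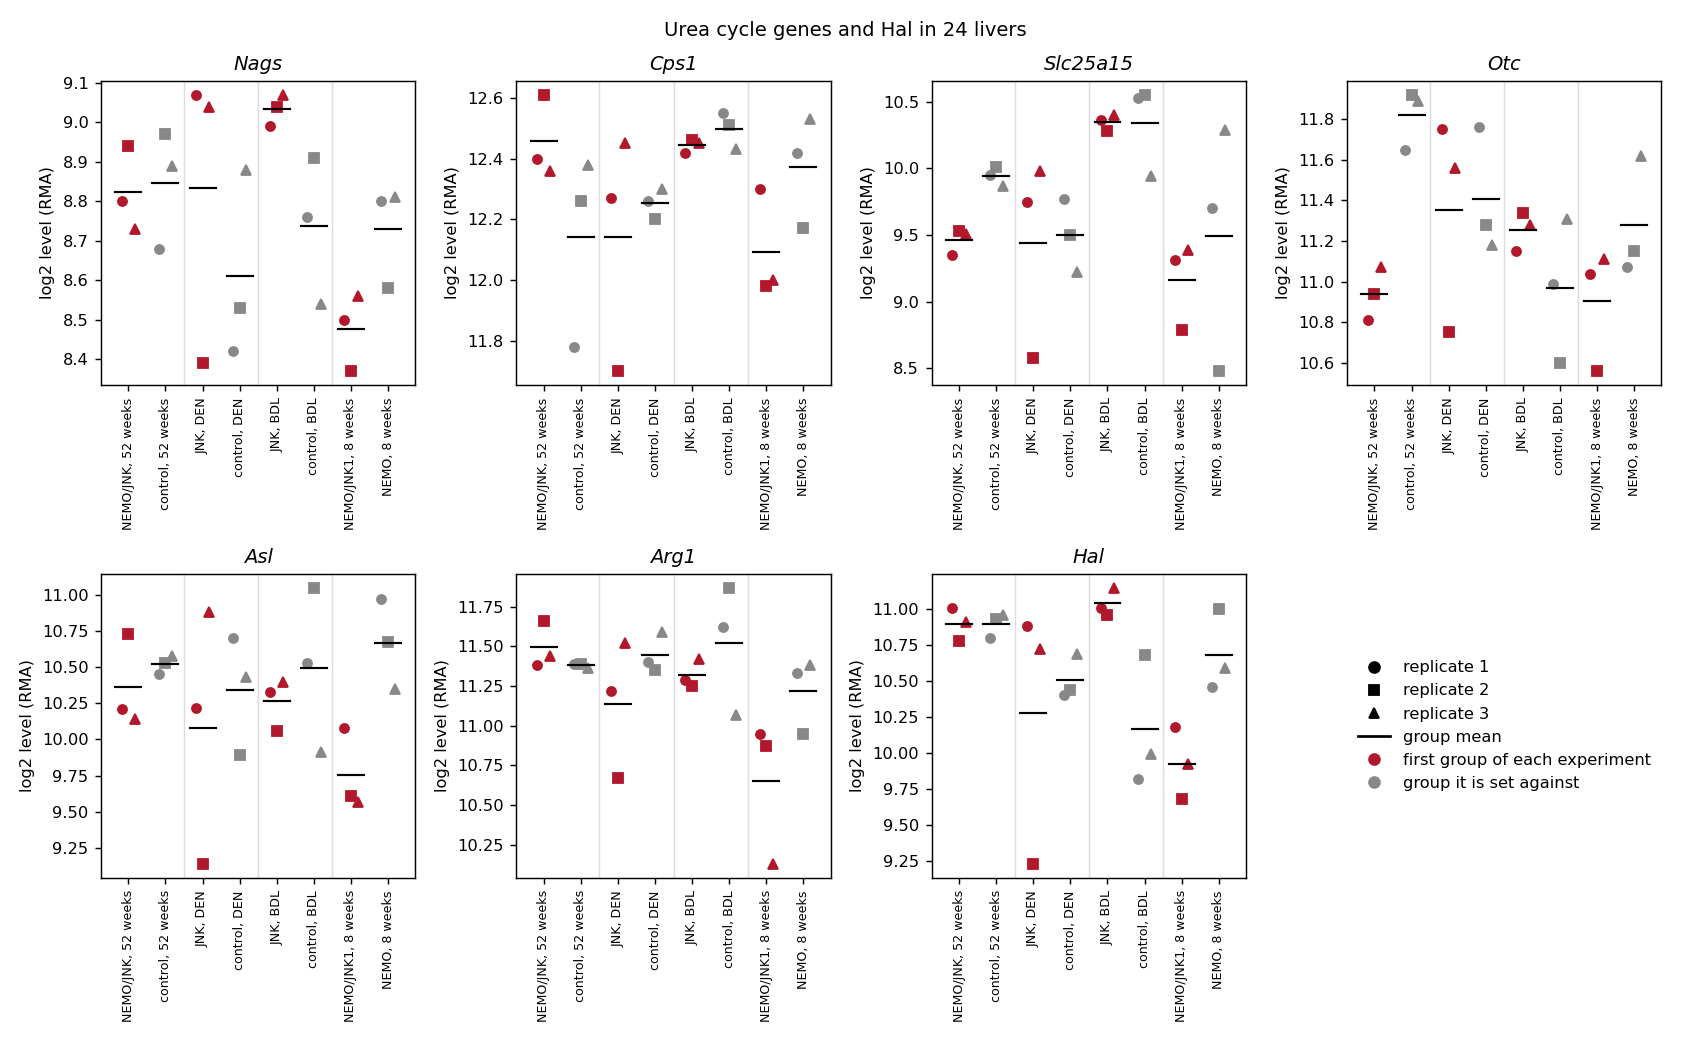
Level of 7 genes in every liver (vertical axes, RMA level on the log2 scale, each gene on its own scale; horizontal axes, the 8 groups, 3 livers each). Symbols mark replicate numbers, black bars the group means; Otc and Slc25a15 separate fully at 52 weeks, and JNK knockout replicate 2 after DEN (square) is the lowest of its group in every panel.

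Nags makes N-acetylglutamate, the activator that Cps1 needs. In triple knockout livers at 52 weeks Nags stood at 8.80, 8.94 and 8.73, against 8.68, 8.97 and 8.89 in livers labelled control, and the groups overlapped. After DEN it read 9.07, 8.39 and 9.04 in JNK knockout livers and 8.42, 8.53 and 8.88 in livers labelled control, with 1 knockout liver below all 3 controls and 2 above them. After BDL all 3 JNK knockout livers (8.99, 9.04 and 9.07) were above the 3 labelled control (8.76, 8.91 and 8.54). The log2 difference after BDL was 0.30 (SE 0.12, 95% interval 0.02 to 0.58), which did not pass the adjustment (limma adjusted p = 0.305). At 8 weeks NEMO/JNK1 knockout livers gave 8.50, 8.37 and 8.56, all below the 8.80, 8.58 and 8.81 of NEMO knockout livers. That difference was -0.25 (SE 0.12, limma adjusted p = 0.659).

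Cps1 encodes carbamoyl phosphate synthetase, which takes up free ammonia and is the committed step of the cycle. Its levels were 12.40, 12.61 and 12.36 in triple knockout livers at 52 weeks, against 11.78, 12.26 and 12.38 in livers labelled control. Only 1 control liver lay clearly below the others, and the difference of 0.31 (SE 0.17, 95% interval -0.08 to 0.70) missed the threshold (limma adjusted p = 0.228). It was -0.01 with each array centred on its median. After DEN the JNK knockout livers stood at 12.27, 11.70 and 12.45 and the livers labelled control at 12.26, 12.20 and 12.30. After BDL the values were 12.42, 12.46 and 12.45 in JNK knockout livers and 12.55, 12.51 and 12.43 in livers labelled control, so that the groups overlapped after both injuries. At 8 weeks Cps1 stood at 12.30, 11.98 and 12 in NEMO/JNK1 knockout livers, against 12.42, 12.17 and 12.53 in NEMO knockout livers, a difference of -0.28 (SE 0.15, limma adjusted p = 0.68). The table's highest value over all probe sets was 13.48, and whether bright probe sets such as that of Cps1 were close to saturation was not tested.

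Slc25a15 encodes the mitochondrial ornithine carrier. At 52 weeks it stood at 9.35, 9.53 and 9.51 in triple knockout livers, against 9.95, 10.01 and 9.87 in livers labelled control, with no overlap. The difference was -0.48 (SE 0.12, 95% interval -0.74 to -0.22, limma adjusted p = 0.0183). The call for Slc25a15 was lost without control replicate 2 (0.0574), knockout replicate 1 (0.0727) or knockout replicate 3 (0.0532), after quantile normalisation (0.0538) and when all 24 arrays shared 1 estimate of the spread (0.351), all as limma adjusted p-values. After DEN the JNK knockout livers spread widely, at 9.75, 8.58 and 9.98, around the 9.77, 9.50 and 9.22 of livers labelled control. After BDL both groups were high, at 10.36, 10.28 and 10.40 in JNK knockout livers and at 10.53, 10.55 and 9.94 in livers labelled control. The 8-week groups overlapped, with 9.31, 8.79 and 9.39 in NEMO/JNK1 knockout livers and 9.70, 8.48 and 10.29 in NEMO knockout livers, the widest spread of any group for this gene (SD 0.92, n = 3). The difference of -0.33 (SE 0.45, limma adjusted p = 0.857) turned to 0.07 without NEMO knockout replicate 3.

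Otc encodes ornithine transcarbamylase, an X-linked gene. At 52 weeks it stood at 10.81, 10.94 and 11.07 in triple knockout livers, against 11.65, 11.92 and 11.89 in livers labelled control. The lowest control liver was above the highest knockout liver, and the difference was -0.88 (SE 0.13, 95% interval -1.18 to -0.59, limma adjusted p = 0.00207). Otc was called in each of the 15 alternative fits of that comparison, with differences between -1.21 and -0.82 and a highest adjusted p of 0.0135. In the livers after DEN, Otc read 11.75, 10.75 and 11.56 in JNK knockout livers and 11.76, 11.28 and 11.18 in livers labelled control. It read 11.15, 11.34 and 11.28 in JNK knockout livers after BDL, against 10.99, 10.60 and 11.31 in livers labelled control. The groups overlapped after both injuries, and the BDL difference was 0.29 (SE 0.18, limma adjusted p = 0.522). It became -0.05 with the prefix of the mouse identifiers as a block, a fit that rests on control replicate 3 (11.31). At 8 weeks Otc was 11.04, 10.56 and 11.11 in NEMO/JNK1 knockout livers and 11.07, 11.15 and 11.62 in NEMO knockout livers, a difference of -0.38 (SE 0.21, limma adjusted p = 0.685) with overlapping groups.

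Ass1 joins citrulline and aspartate, and its signal was read only together with Gm5424. On the brighter of the 2 shared probe sets the level averaged 12.55 ± 0.11 in triple knockout livers and 12.55 ± 0.12 in livers labelled control at 52 weeks (SD, n = 3 each). It averaged 12.17 ± 0.50 in JNK knockout livers and 12.20 ± 0.17 in livers labelled control after DEN, and 12.59 ± 0.02 in JNK knockout livers and 12.56 ± 0.02 in livers labelled control after BDL. Groups overlapped in all 3 experiments. At 8 weeks the probe set stood at 12.46, 12.13 and 12.08 in NEMO/JNK1 knockout livers, all below the 12.68, 12.62 and 12.73 of NEMO knockout livers. Fitted over all probe sets, that difference was -0.45 (SE 0.14, limma adjusted p = 0.677).

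Asl splits argininosuccinate into arginine and fumarate. At 52 weeks it stood at 10.21, 10.73 and 10.14 in triple knockout livers, against 10.45, 10.53 and 10.58 in livers labelled control. The groups overlapped, with a difference of -0.16 (SE 0.17, limma adjusted p = 0.53) that was -0.48 and past the threshold with each array centred on its median (limma adjusted p = 0.0477) and 0.01 after quantile normalisation. Asl read 10.22, 9.14 and 10.88 in JNK knockout livers after DEN, the widest spread of the gene, and 10.70, 9.89 and 10.43 in livers labelled control. After BDL it was 10.33, 10.06 and 10.40 in JNK knockout livers and 10.53, 11.05 and 9.91 in livers labelled control, again overlapping. The 8-week groups did not overlap, with 10.08, 9.61 and 9.57 in NEMO/JNK1 knockout livers and 10.97, 10.67 and 10.35 in NEMO knockout livers. The NEMO/JNK1 mean was 0.53 of the NEMO mean, a difference of -0.91 (SE 0.21, 95% interval -1.42 to -0.40, unadjusted p = 0.00399) with a limma adjusted p of 0.544.

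Arg1 releases urea from arginine in the last step. At 52 weeks it stood at 11.38, 11.66 and 11.44 in triple knockout livers and at 11.39, 11.39 and 11.36 in livers labelled control, a difference of 0.11 (SE 0.12, limma adjusted p = 0.53) that was -0.21 with each array centred. After DEN it was 11.22, 10.67 and 11.52 in JNK knockout livers, against 11.40, 11.35 and 11.59 in livers labelled control. This was the lowest of the 7 DEN differences, at -0.31 (SE 0.22, limma adjusted p = 0.985), and the groups overlapped. After BDL Arg1 read 11.29, 11.25 and 11.42 in JNK knockout livers, inside the range of the livers labelled control (11.62, 11.87 and 11.07). At 8 weeks NEMO/JNK1 knockout livers gave 10.95, 10.87 and 10.13 and NEMO knockout livers 11.33, 10.95 and 11.38. The highest NEMO/JNK1 liver and the lowest NEMO liver both read 10.95, and the difference was -0.57 (SE 0.25, 95% interval -1.16 to 0.02, limma adjusted p = 0.647).

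Hal, histidine ammonia-lyase, opens the breakdown of histidine and releases its amino group as ammonia. Its 52-week groups lay on top of each other, at 11.01, 10.78 and 10.91 in triple knockout livers and 10.80, 10.93 and 10.96 in livers labelled control. After DEN it was 10.88, 9.23 and 10.72 in JNK knockout livers, against 10.40, 10.44 and 10.69 in livers labelled control. After BDL the JNK knockout livers stood at 11.01, 10.96 and 11.15, all above the livers labelled control at 9.82, 10.68 and 9.99. The JNK knockout mean after BDL was 1.84 times the control mean, a difference of 0.88 (SE 0.21, 95% interval 0.39 to 1.37, unadjusted p = 0.00328) that did not pass over all genes (limma adjusted p = 0.105). Without control replicate 2, the control liver closest to the knockouts, the adjusted p for Hal was 0.00817, and over the 16 alternatives it ran up to 0.291. Cholangiocyte marker means over the same livers were 6.70 to 7.41 in JNK knockout livers and 5.55 to 6.42 in livers labelled control, with 1 of 7 markers called higher, and their part was not tested. At 8 weeks Hal was 10.18, 9.68 and 9.92 in NEMO/JNK1 knockout livers and 10.46, 11 and 10.59 in NEMO knockout livers, without overlap and with a difference of -0.76 (SE 0.20, unadjusted p = 0.00686, limma adjusted p = 0.588).

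**Figure D2:**
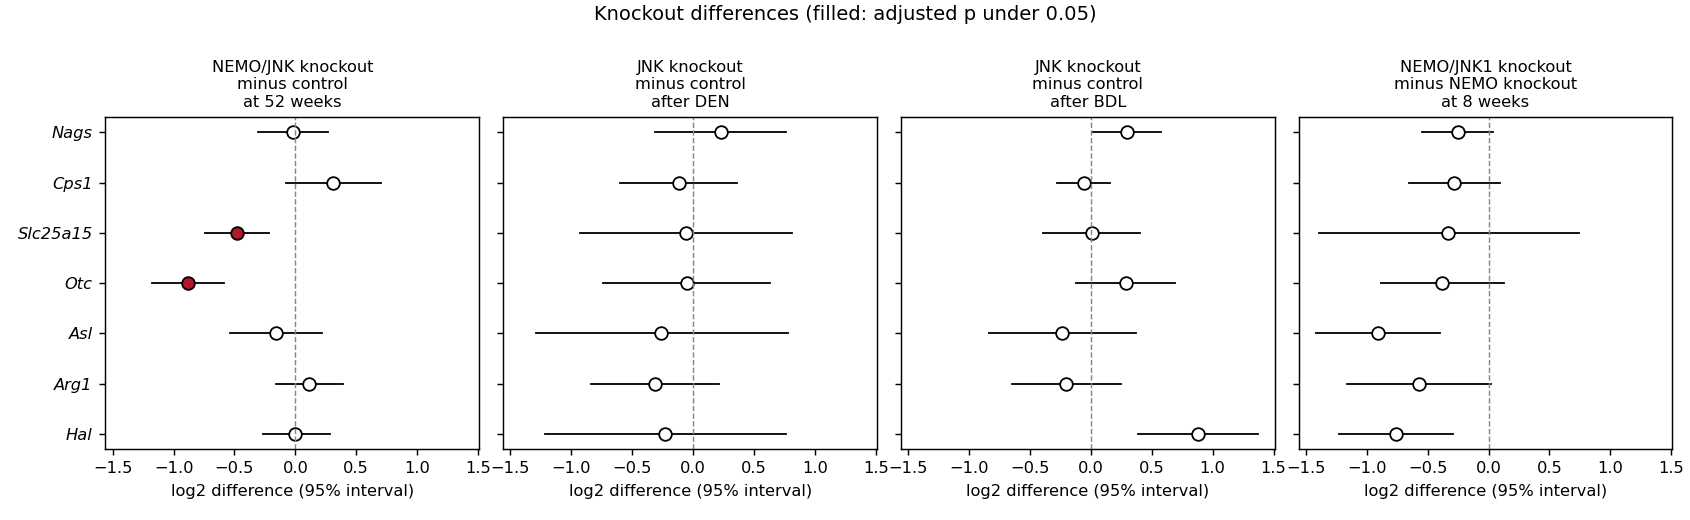
Log2 differences between genotypes for 7 genes in the 4 experiments (horizontal axes, points) with 95% intervals from limma (lines), knockout minus the group it is set against. Filled points mark the 2 genes past an adjusted p of 0.05, Otc at -0.88 and Slc25a15 at -0.48, both at 52 weeks.

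Counted over the 7 genes, 2 were separated at 52 weeks, both lower, where the groups of 20.3% of all genes were separated with the knockout lower. After DEN 0 of 7 were separated, against 9.47% of all genes in either direction. After BDL 2 were separated with the knockout higher, Hal and Nags, against 9.95% of all genes, and 1.35% of all genes were called in either direction. At 8 weeks 3 were separated with the NEMO/JNK1 livers lower, Asl, Nags and Hal, against 7.66% of all genes. At an unadjusted p under 0.05 the 8-week fit held 7.66% of all genes and 2 of the 7, the BDL fit 14.6% and 2 of the 7, and the DEN fit 4.15% and 0 of the 7.

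The order of the 8 groups had a common low end for the 7 genes. The NEMO/JNK1 knockout livers at 8 weeks had the lowest mean of the 8 groups for each of them. On the brighter probe set shared by Ass1 the lowest mean was that of JNK knockout livers after DEN (12.17), against 12.22 in NEMO/JNK1 livers. The high end differed, with the livers labelled control at 52 weeks highest for Otc (11.82 ± 0.15), the JNK knockout livers after BDL highest for Nags (9.03 ± 0.04), Slc25a15 (10.35 ± 0.06) and Hal (11.04 ± 0.10), the livers labelled control after BDL highest for Cps1 (12.50 ± 0.06) and Arg1 (11.52 ± 0.41), and the NEMO knockout livers at 8 weeks highest for Asl (10.67 ± 0.31). Most neighbours in the order overlapped in their livers. All 7 pairs of neighbouring groups overlapped for Cps1, Otc, Asl, Arg1 and Hal, and 6 of 7 for Nags and Slc25a15. Experiments differed in age and treatment, and no test was made over the 8 groups.

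JNK knockout replicate 2 after DEN was the lowest of its group in 7 of 7 genes, with a median deviation from the group mean of -0.60. Low values in this liver were not particular to these genes. It also had the lowest mean of its group on each list of other amino acid pathways, such as methionine (10.64, against 11.38 and 11.53). The same held for pericentral genes (8.74, against 9.53 and 9.65). This liver was the highest of its group for cell cycle genes (6.86, against 5.26 and 5.94). It had the highest cholangiocyte marker mean of its group, 7.23 over 7 markers such as Krt19 and Epcam, against 5.37 and 6.23 in the other two and 4.93 to 5.67 in livers labelled control after DEN, while its mean over 7 hepatocyte markers was 12.55, against 12.72 in each of the other two. The part of these cells in the low values was not tested. Without that liver the 7 DEN differences had a median of 0.25 and 1 was below 0, whereas with it the median was -0.12 and 6 were below 0. Without replicate 3, the liver with high Xist, the median was -0.33. In neither case was any of the 7 called, with limma adjusted p-values between 0.961 and 0.997.

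**Figure D3:**
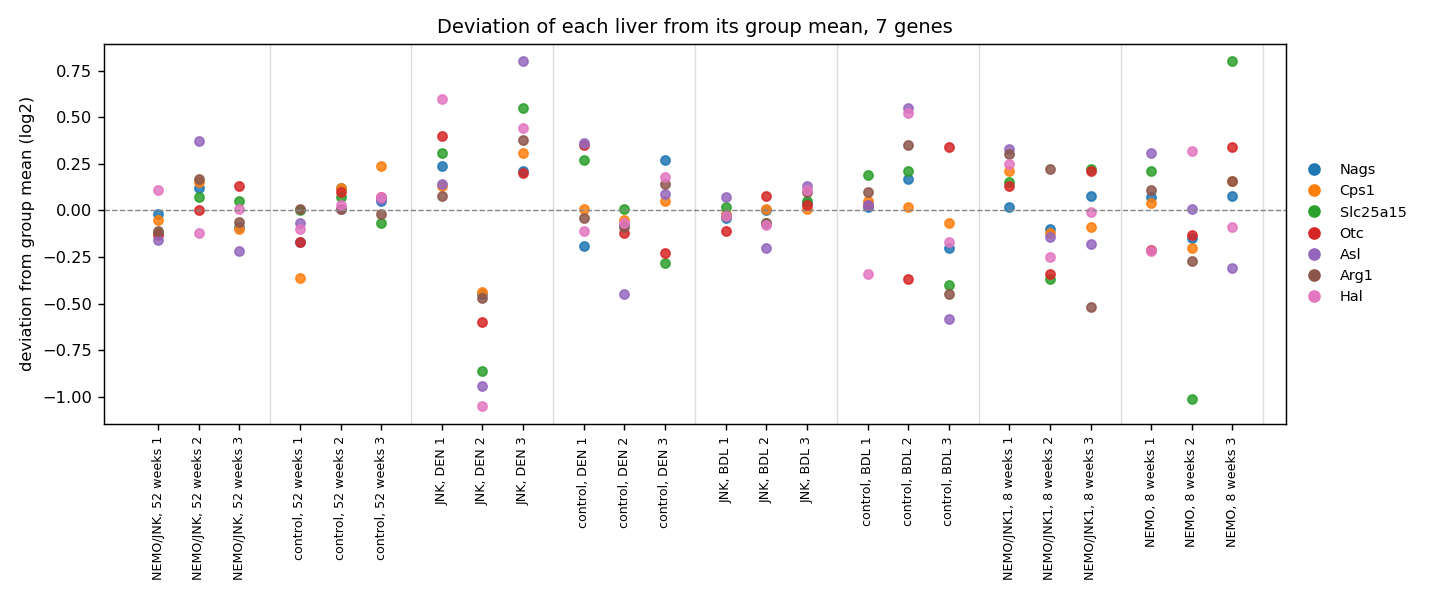
Deviation of each of 24 livers from its group mean (vertical axis, log2) for 7 genes (colours), livers in 8 groups of 3 along the horizontal axis. The 7 points of JNK knockout replicate 2 after DEN all lie below 0, with a median of -0.60.

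Livers that were low in one of these genes tended to be low in others. Over the 21 pairs of genes, the correlation of deviations from group means across the 24 livers ran from 0.01 to 0.76 with a median of 0.57. The points share their arrays, and these values are descriptions without a test. They include JNK knockout replicate 2 after DEN, with a median deviation of -0.60, where those of the other livers lay between -0.20 and 0.38. Correlations without that liver, or over pairs of other genes, were not taken. By Pearson correlation of levels over the 24 arrays, the genes most like Slc25a15 were Tat (0.936), the tyrosine aminotransferase, Aass (0.835), which opens lysine breakdown, and Aldh1l1 (0.818), a folate enzyme. The gene most like Otc was Bphl (0.934), followed by Dhdh (0.93) and Hibadh (0.92), a valine breakdown enzyme. For Cps1 the closest was Cth (0.799), an enzyme of cysteine synthesis, and for Arg1 Sult1d1 (0.867), a sulfotransferase. Asl was most like Sec23a (0.807), a coat protein of vesicles leaving the endoplasmic reticulum, Nags most like Edem1 (0.71), which acts on misfolded proteins there, and Hal most like Glyctk (0.815), glycerate kinase.

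Some genes of other amino acid pathways were also lower at 52 weeks. Among 44 measured genes of 6 lists on histidine, phenylalanine and tyrosine, tryptophan, serine and glycine, methionine, and glutamate and proline, 13 were called lower and 4 higher, with a median difference of -0.28 against -0.045 over all genes, of which 7.9% were called lower and 13.6% higher (8942 lower and 1570 higher with each array centred). In histidine breakdown Uroc1, the urocanase that acts after Hal, fell by 0.93 on the log2 scale (limma adjusted p = 0.00337) while Hal stood level, and the other 2 genes of that list were not called. Qdpr, which regenerates the cofactor of phenylalanine hydroxylase, fell by 1.15 (limma adjusted p = 0.00069), the only call among 6 genes of phenylalanine and tyrosine breakdown. In tryptophan breakdown Haao and Kynu, on the route to quinolinate, fell by 0.99 and 0.94 on the log2 scale (limma adjusted p = 0.00146 and 0.00151), and Acmsd, which draws an intermediate away from NAD synthesis, rose by 1.66 (limma adjusted p = 0.019), a call lost without knockout replicate 1 (0.0608) or 2 (0.0575). Of 11 serine, glycine and threonine genes 5 were called lower and 2 higher, among them Amt and Gcsh of the glycine cleavage system, with differences of -0.87 and -0.91, and Shmt1, with -0.91. Of 7 methionine genes 3 were called lower, Gnmt, Cbs and Bhmt2, with differences of -0.63, -0.50 and -0.44. They were called in 11, 10 and 10 of 15 alternative fits. Without control replicate 3 all 3 lost the call (limma adjusted p = 0.0526, 0.0623 and 0.0884), as they did without knockout replicate 3 (0.0507, 0.082 and 0.0919), and so did Gnmt and Bhmt2 without knockout replicate 1 (0.0555 and 0.0939), Cbs without knockout replicate 2 (0.0589) and Bhmt2 without control replicate 2 (0.0751). Got1, the cytosolic aspartate aminotransferase, rose by 0.81 (limma adjusted p = 0.0431), and Aldh4a1 of proline breakdown fell by 0.72, the 2 calls among 12 genes of glutamate and proline metabolism. Got1 was called in 8 of 15 alternative fits and lost the call without control replicate 1 (0.126) or 3 (0.0743), or knockout replicate 1 (0.081) or 2 (0.104), while Aldh4a1 lost it without knockout replicate 3 (0.0545), all limma adjusted p-values. Slc25a22, a mitochondrial glutamate carrier, rose by 1.03 and was the only call among 11 carriers.

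**Figure D4:**
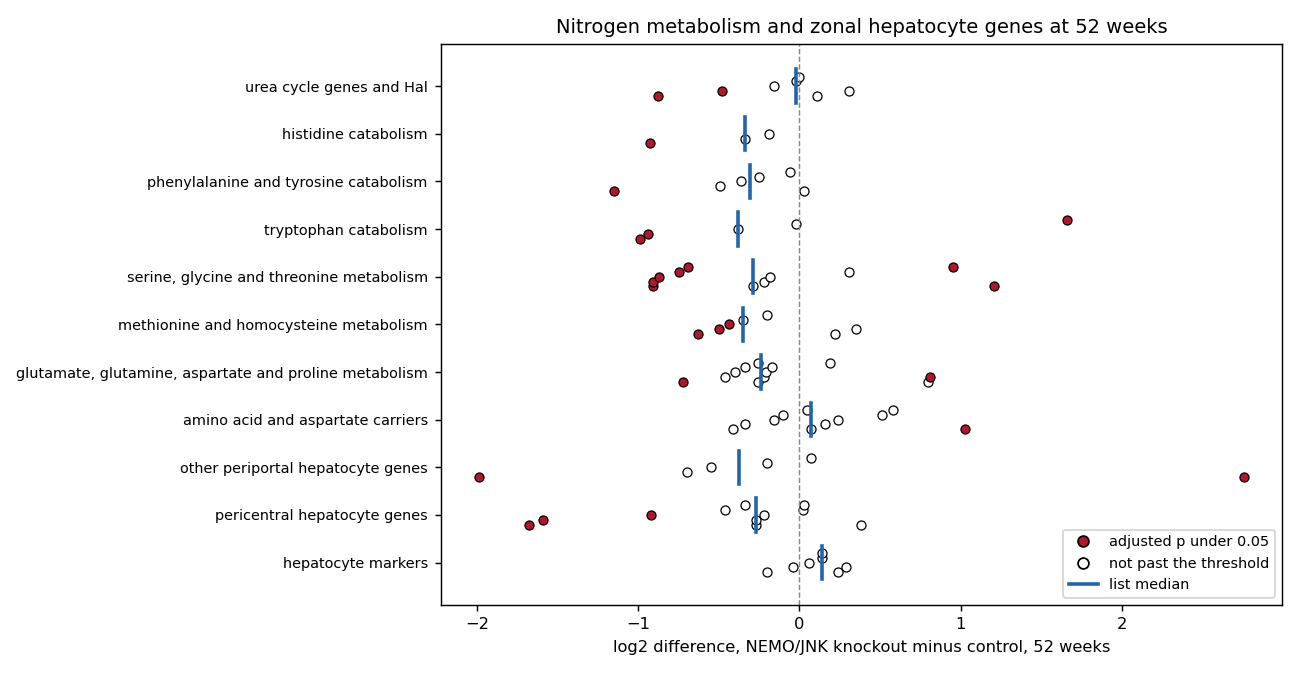
Log2 differences at 52 weeks, NEMO/JNK knockout minus control (horizontal axis), for each measured gene of 11 lists (rows). Filled points are past an adjusted p of 0.05 and blue bars are list medians; the urea cycle genes and Hal have a median of -0.02, and the 7 hepatocyte markers one of 0.14 with 0 calls.

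Listed regulators of the urea cycle were mostly lower where they were called. The list holds mainly transcription factors and receptors, but also coactivators and the sirtuins Sirt3 and Sirt5. Of 15 measured at 52 weeks 5 were called lower and 1 higher, among them the bile acid receptor Nr1h4 with -0.93 (limma adjusted p = 0.00314) and Cebpa with -0.73 (limma adjusted p = 0.016), while the coactivator Ppargc1a rose by 0.91 (limma adjusted p = 0.0151). Over all genes 7.9% were called lower and 13.6% higher. Cebpa lost its call without control replicate 1 (0.05) or knockout replicate 1 (0.0535), and Ppargc1a without control replicate 1 (0.0529), all limma adjusted p-values. Zonal genes moved in both zones. Of 6 other periportal genes Cyp2f2 fell by 1.99 (limma adjusted p = 0.00313) and Cdh1, which biliary cells also express, rose by 2.76 (limma adjusted p = 0.000277), and of 11 pericentral genes 3 were called lower, Slc1a2, Rhbg and Tbx3, with differences of -1.68, -1.59 and -0.92. Tbx3 was called in 9 of 15 alternative fits, and the limma adjusted p without control replicate 1 or 3, or knockout replicate 1 or 2, was 0.108, 0.104, 0.102 and 0.069 in that order. The 7 hepatocyte markers gave 0 calls in limma, with liver means between 12.68 and 12.71 in triple knockout livers and between 12.44 and 12.73 in livers labelled control. Over the same arrays 7 of 7 cholangiocyte markers were called higher, their liver means being 8.06 to 8.68 in triple knockout livers and 4.72 to 5.35 in livers labelled control. Of 8 macrophage markers 6 were called higher, with liver means of 8.53 to 9.93 in triple knockout livers and 7.41 to 8.04 in livers labelled control. Of the lymphocyte markers 4 of 7 were called higher, of the neutrophil markers 1 of 5 and of the cell cycle genes 5 of 5. Of 8 stellate cell and fibroblast markers 1 was called higher and 1 lower, and 1 of 6 sinusoidal endothelium markers was called lower. In 15 alternative fits the endothelial marker Clec4g was called in 5, the neutrophil marker Csf3r in 6 and the lymphocyte marker Cd3e in 9, while the lymphocyte markers Cd8a and Jchain were called in 15. The part of these cells in the differences of Otc and Slc25a15 was not tested.

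Few of the wider pathway genes passed the threshold in the other genotype comparisons. After BDL 0 of the 44 amino acid genes were called in limma and 16 had an unadjusted p under 0.05, where 1.35% of all genes were called and 14.6% had such a p. The list medians after BDL were 0.46 for the 3 histidine genes, 0.30 for the 5 tryptophan genes and -0.05 for the 7 methionine genes, against -0.002 over all genes. Among carriers, regulators and zonal genes 3 were called after BDL, the amino acid carrier Slc1a4 at 0.85 (limma adjusted p = 0.0215), the pericentral glutamate carrier Slc1a2 at 1.90 (limma adjusted p = 0.00451) and the lipid droplet enzyme Hsd17b13 at -0.92 (limma adjusted p = 0.0155). Slc1a2 was called in 15 of 16 alternative fits, the exception being that of all 24 arrays (limma adjusted p = 0.134). Slc1a4 and Hsd17b13 were called in 10 of 16 each, and both lost the call without control replicate 1 (0.0836 for Slc1a4, 0.0645 for Hsd17b13) or JNK knockout replicate 1 (0.0977, 0.0879), 2 (0.0563, 0.0843) or 3 (0.071, 0.066), all limma adjusted p-values. On the lists of other cell types and of the cell cycle, 4 genes were called higher and 2 lower after BDL. At 8 weeks 39 of the 44 values were below 0 and 10 had an unadjusted p under 0.05, which 7.66% of all genes had, with 0 called in limma. The lowest p-values among glutamate and proline genes belonged to Gpt, an alanine aminotransferase, at -1.32 and Prodh, the proline dehydrogenase, at -1.42 (limma adjusted p = 0.544 and 0.602). The 11 pericentral genes had a median of -0.86 there, with liver means of 7.45 to 8.75 in NEMO/JNK1 knockout livers and 8.19 to 9.44 in NEMO knockout livers. The 6 other periportal genes had a median of 0.04, so that the lower values were not shared by every zonal list. Hepatocyte marker means were 12.65 to 12.72 in NEMO/JNK1 knockout livers and 12.67 to 12.70 in NEMO knockout livers, and macrophage marker means were 7.79 to 10.60 in NEMO/JNK1 knockout livers and 8.37 to 8.77 in NEMO knockout livers, whose part was not tested. All NEMO knockout livers of 8 weeks carried a mouse identifier prefix that no other liver had, and prefix and genotype cannot be told apart in that experiment. After DEN 0 of the 44 genes were called and 0 had an unadjusted p under 0.05, where 0.0% and 4.15% of all genes did.

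The JNK effect could be set against itself in the 2 injuries. The difference of the differences, BDL minus DEN, lay between 0.02 and 1.11 for the 7 genes, and 0 of 7 passed in limma, where 0.0478% of all genes did and 7.11% had an unadjusted p under 0.05, with 0 of the 7 among them. Hal had the largest value of the 7, 1.11 (SE 0.51, 95% interval -0.02 to 2.24, limma adjusted p = 0.713). Without JNK knockout replicate 2 after DEN it was 0.59, and 5 of the 7 values were then below 0, as were 4 of 7 without control replicate 3 after BDL.

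Between ligated and DEN-treated livers, the ornithine carrier had the largest difference of the 7 genes in both genotypes. Slc25a15 was higher after BDL than after DEN in the livers labelled control (10.53, 10.55 and 9.94, against 9.77, 9.50 and 9.22) and in JNK knockout livers (10.36, 10.28 and 10.40, against 9.75, 8.58 and 9.98), without overlap in either. The differences of 0.84 (SE 0.21, limma adjusted p = 0.0848) and 0.91 (SE 0.34, limma adjusted p = 0.314) missed the threshold, and in each genotype Slc25a15 was the 1 gene of the 7 with an unadjusted p under 0.05, as 19.1% and 13.4% of all genes had. None of the 7 was called in either, where 2.48% and 1.08% of all genes were. Both comparisons use the arrays of the genotype comparisons after BDL and DEN. For Slc25a15 in livers labelled control the limma adjusted p was 0.0284 without BDL replicate 3 and 0.0433 with array weights. The difference was 0.45 when the prefix of the mouse identifiers was a block. BDL replicates 1 and 2 labelled control carried a prefix that BDL replicate 3 and the DEN livers lacked, so that fit rests on BDL replicate 3. In JNK knockout livers the difference of Slc25a15 was 0.48 without DEN replicate 2. Separated as well were Cps1 in the livers labelled control (0.24, SE 0.11, limma adjusted p = 0.271) and Hal in JNK knockout livers (0.76, SE 0.41, limma adjusted p = 0.496), so that 2 of 7 genes stood apart in each genotype, where 12.8% and 10.5% of all genes did so in that direction. In livers labelled control Otc differed by -0.44, with overlapping groups. On the pericentral side Glul, the glutamine synthetase, fell by 1.23 on the log2 scale in livers labelled control (limma adjusted p = 0.0206) and Slc1a2 fell by 2.80 (limma adjusted p = 0.00489). Glul was called in 11 of 16 alternative fits. It lost the call without DEN replicate 2 (0.0699) or 3 (0.0538) or BDL replicate 1 (0.0965) and with the replicate number as a block (0.072), all limma adjusted p-values. With the prefix as a block, which rests on BDL replicate 3, Glul differed by -1.28 and Slc1a2 by -2.98, neither called. In the same livers 6 of 8 stellate cell and fibroblast markers, 2 of 7 cholangiocyte markers and 2 of 8 macrophage markers were called higher and 1 of 6 sinusoidal endothelium markers lower, and their part was not tested. Times after the injuries differed, at 28 days for BDL and 40 days for DEN, so that injury and time cannot be told apart.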

How the data were processed

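Total RNA of 24 mouse livers was labelled with biotin and measured on whole-transcript Affymetrix arrays, 1 per liver. The authors deposited log2 expression values made with RMA, per the submitters' processing notes. Which RMA program was used, and over which arrays, is not given in the sources used here. Precision is limited by the number of arrays, and no detection calls were used.

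Of 35556 probe sets, 21218 were paired with 1 symbol in GEO's platform annotation, 1881 with several and 12457 with none. Entrez identifiers of 21185 matched RefSeq (GRCm38.p6). They stood for 18820 genes, and a gene with several probe sets (1386 genes) was taken at the one with the highest mean. Differences were fitted in R 4.3.3 with limma 3.58.1 (lmFit and eBayes), two-sided, with Benjamini-Hochberg adjustment over all genes and calls at an adjusted p under 0.05. Each pair of groups used its own 6 arrays, and the interaction 12. Named genes were the listed genes, the targets and, from each list, up to 3 called genes with the smallest p or, where none was called, 2 as values. The genes and the lists were chosen with earlier results of these data known. For likeness the 3 genes with the highest Pearson correlation were taken, leaving out predicted genes, olfactory and vomeronasal receptors and small RNAs.

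Replicate numbers were not used as pairs in the main fits, and whether they pair the livers is not settled. In no comparison did all 3 same-numbered pairs correlate above 0.1 in their deviations from group means. After DEN, pairs 1 and 2 reached 0.359 and 0.301. Replicates carry different mouse identifiers. Simulated data held 200 changed genes among 18820, some changed by 1 on the log2 scale and the rest by 2, with each gene varying independently. A log2 change of 1 was called there in 78% of genes for 52 weeks, 50% for DEN, 70% for BDL and 34% for 8 weeks. The adjustment depends on how many genes differ, and the real fits called 0 of 18820 genes after DEN and at 8 weeks. These shares are therefore not the chance of a call in the real data.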

Additional observations from a re-analysis of the deposited data

How the results depend on the processing

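At 52 weeks the count of the 7 genes called lower was 4 with each array centred on its median, 1 after quantile normalisation, 1 with all 24 arrays in 1 fit and between 1 and 2 when single livers were left out. Centring added Asl and Hal, and it moved the median of all genes from -0.045 to -0.371 and the calls over all genes to 8942 lower and 1570 higher, against 1486 lower and 2562 higher. Quantile normalisation gave 2426 lower and 2115 higher. Under centring the 52-week differences of Cps1 and Arg1 were -0.014 and -0.212, and under quantile normalisation that of Asl was 0.012. The BDL difference of Otc was -0.05 with the prefix block, a fit that rests on control replicate 3. With single livers left out the 8-week difference of Slc25a15 ran from -0.83 to 0.073, the last without NEMO knockout replicate 3. The causes were not tested. After BDL 1 gene, Hal, was called higher without control replicate 2, so that the range over livers left out was 0 to 1. For BDL minus DEN in livers labelled control it was also 0 to 1, and 1 with array weights, Slc25a15 in both cases. No other setting changed the number of the 7 genes called.

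The replicate block left the 52-week calls at 2 of 7 (adjusted p = 0.00393 for Otc and 0.0386 for Slc25a15) and the other comparisons at 0. All 6 livers of the 52-week comparison correlated best with their own number, at r between 0.017 and 0.035, as did 4 of 6 after DEN, 3 of 6 after BDL and 0 of 6 at 8 weeks, a hint from the data and not from the design. Over all genes the block gave 2415 higher and 1321 lower calls at 52 weeks, and 83 and 59 after BDL against 150 and 105. Over all settings the counts after BDL ran from 32 to 310 higher and 25 to 249 lower. They ran from 0 to 19 higher and 0 to 38 lower at 8 weeks, and from 0 to 2 higher after DEN. For BDL minus DEN they ran from 10 to 610 higher and 5 to 295 lower in livers labelled control, against 327 and 139, and from 1 to 1337 higher and 0 to 1145 lower in JNK knockout livers, against 145 and 59. The interaction gave 0 to 35 higher and 2 to 33 lower, against 4 and 5.

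Among 761 refits of member differences that were not called, 74 changed sign and 5 became calls. Of the 8-week differences 1 of 105 changed sign. With 3 livers a group, smaller changes than those called would often be missed, and values at or near 0 do not show that levels were equal.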
